A study of Mus musculus with 6 samples.

Results

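The heat shock proteins and chaperones described here are 37 mouse genes, taken as a list of names: the Hsp70, Hsp110, Hsp90 and small heat shock protein families, the mitochondrial chaperonin, the J proteins, heat shock factors and a few co-chaperones. Their probe sets were found by the gene symbol that the array's annotation gives, in its current or former form. A total of 35 of the 37 genes had at least 1 such probe set, 92 probe sets in all of 45037, and Hsf1 and Hsp90ab1 are not analysed here. RNA was measured on 6 single-colour arrays, of which 3 held RNA from cerebellar astrocytes and 3 from neocortical astrocytes of mouse. The ICR strain is stated for the neocortical samples and no strain for the cerebellar ones, so a difference of region cannot be told apart from one of strain if the strains differed. No genotype, treatment or age is stated for either group, nor how the cells were isolated or grown, nor whether replicate arrays stand for separate animals or cultures. The p-values therefore only set the difference between groups against the spread among arrays within groups, and that spread may be technical.

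Chaperones help proteins to fold and keep unfolded chains from clumping. Hsp70 proteins bind short stretches of unfolded chains in cycles of ATP hydrolysis, which J proteins start and nucleotide exchange factors such as the Hsp110 proteins end, and Hsp90 proteins act later on clients such as kinases and steroid receptors. Small heat shock proteins hold unfolded proteins without using ATP, and several of them, among them Cryab (alpha B crystallin) and Hspb1, are made by astrocytes and rise in reactive ones. Under heat or other stress, heat shock factor 1 binds repeats of the bases GAA and TTC ahead of many of these genes and raises their transcription.

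Of the 34 members whose brightest probe set passed the filter on low signal, 5 were lower in cerebellar than in neocortical astrocytes, 1 was higher and 28 did not pass the test. The lower ones were Hspa4l, Hspb6, Hspb2, Hspa2 and Hsp90aa1, and the higher one was Dnajb1. The test was limma's moderated linear model, fitted to all 27022 probe sets kept and adjusted over them by the Benjamini-Hochberg method, with a threshold of 0.05. The remaining gene with a probe set, Hspb3, a small heat shock protein of muscle, lay below the filter, with signals of 36.9, 121 and 78.1 on cerebellar and 108, 138 and 174 on neocortical arrays. Over all 12616 genes, each by its brightest probe set, 12.7% passed, 5.3% as higher and 7.36% as lower in cerebellar astrocytes, against 17.6% of the members. By probe set, 10.6% passed. No test over the list was made. With no filter on low signal, which adds dim probe sets to the adjustment, Hspa4l alone of the 6 was called. Without the variance trend in the model, Hspa4l, Hspb6 and Hspb2 were called. In bulk RNA such as this, fewer cells of a type and less RNA per cell cannot be told apart.

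The members as a group did not shift far. Their median log2 difference, cerebellar minus neocortical, was -0.04, beside -0.01 over all genes, with 13 members above and 21 below 0. Only Hspa4l and Hspb2 differed by 2-fold or more, and 30 of the 34 differed by less than 0.5 on the log2 scale. The median size of the difference, without its sign, was 0.185 for members and 0.228 for all genes. The spread within groups was smaller for members too. Their median log2 range was 0.257 on cerebellar and 0.203 on neocortical arrays, beside 0.372 and 0.285 for all genes. Every cerebellar array lay below every neocortical array for 9 members and above for 4, beside 18.3% and 16% of all genes. Scaling the arrays to a common median in place of quantile normalization shifted all genes, to a median of -0.144, and the members to -0.24, which is -0.096 relative to all genes. Probe sets past the threshold were then 819 higher and 2105 lower, beside 1319 higher and 1545 lower as reported.

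**Figure D1:**
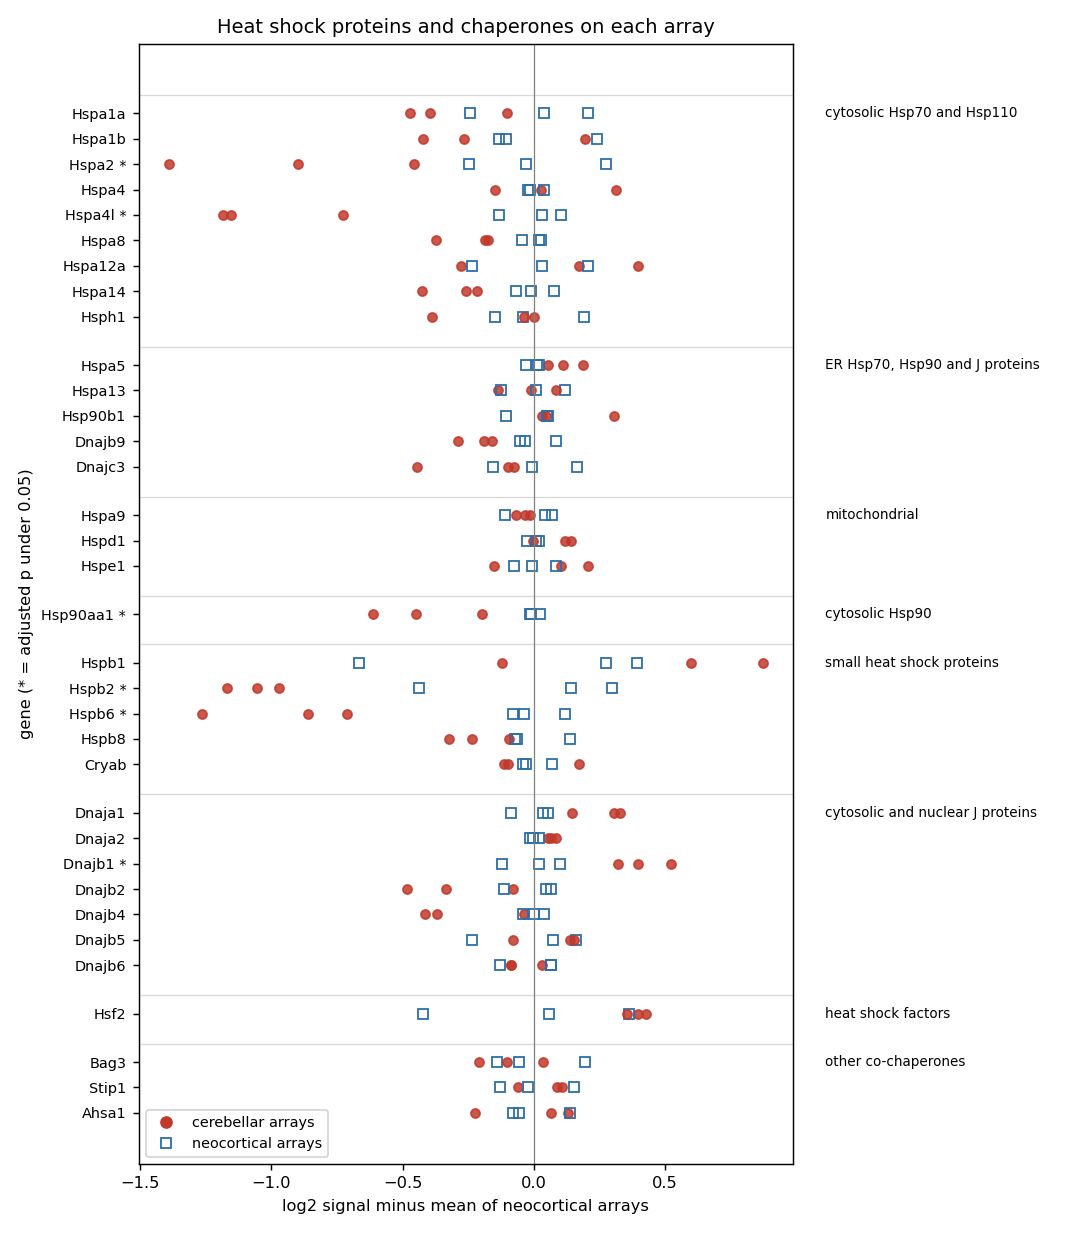
Log2 signal of the 34 members on each array, relative to the mean of the neocortical arrays (horizontal axis), with genes grouped by role down the page. Filled circles are the 3 cerebellar and open squares the 3 neocortical arrays, a star marks genes past the threshold, and most genes have both kinds of point close to 0.

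The groups differed in some markers and in a control ratio. As deposited, every array had the same trimmed mean of 1500, so similar brightness between arrays is not a result. Medians of the deposited signal were 312.1, 329.8 and 361.2 on cerebellar and 296, 284.7 and 312.6 on neocortical arrays. Of the astrocyte markers, 10 of 10 were above the filter, which is on the mean over the 6 arrays, among them Gfap, Slc1a3 and Aqp4. Their median log2 difference, cerebellar minus neocortical, was -0.409, with 3 above and 7 below 0. Gfap had a difference of -1.11 with no overlap, which did not pass (limma adjusted p = 0.0649) but passed with array number as a block (0.0041). The part of these markers in the results for the members was not tested. The summed signal of the astrocyte markers was 159200 to 229400 on cerebellar and 220400 to 267200 on neocortical arrays, lowest on cerebellar array 1. Of all the marker lists, Slc1a3, Glul, Aldoc, Olig1, Syt1, Acta2 and Myl9 were lower in cerebellar astrocytes, and Aqp4, Mbp and Fn1 were higher. The summed signal of 10 fibroblast and meningeal markers was 112300 to 280000 on cerebellar and 82350 to 132900 on neocortical arrays. That of 10 microglial markers was 6312 to 35470 on cerebellar and 10910 to 30970 on neocortical arrays, and that of 10 neuronal markers was 7696 to 19790 on cerebellar and 9137 to 13870 on neocortical arrays. For 9 oligodendrocyte markers the sum was 52870 to 81530 on cerebellar and 69650 to 80820 on neocortical arrays, and Mog was at the signal floor on every array. On every array Stmn2 gave most of the neuronal sum and Cnp most of the oligodendrocyte sum, so these sums mostly follow single genes. The 3′ to 5′ ratio of the Gapdh control, which moves with RNA degradation and labelling, was 0.996 ± 0.0795 on cerebellar and 0.873 ± 0.00922 on neocortical arrays (SD, n = 3 each), with no overlap. The part of this ratio in the results was not tested. As a guide to the dim range, 24 bacterial control probe sets read up to 257.6, with a 95th percentile of 106.8 over their readings. By mean signal, markers under that highest reading in both groups were Dcx, Gabra6, Nefl, Neurod1, Snap25 and Tubb3 of the neuronal list. Of the other lists named here, so were Mag, Mobp, Mog, Ugt8a, Slc6a13 and Itgam.

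The bases ahead of some of these genes are shown because heat shock elements are what heat shock factors read. Members that passed the test are set beside a few that did not. The windows are from RefSeq on GRCm38.p6 and run from 250 bases before the annotated start to the base before it, on the strand of the gene. RefSeq windows were found for 29 of the 37 genes. The motif searched was GAANNTTC or TTCNNGAA, each of which reads the same on both strands, and matches may overlap. Matches are in capitals. Hspa4l, Hspa2, Hspb6 and Dnajb1 passed the test, Hspb1 passed in 1 form of it, and Hspa1a, Hspd1 and Hspe1 did not pass. The windows shown for Hspb1, Hspa1a, Hspd1 and Hspe1 all hold a match. Of the 24 members not passing, 9 had a match, so the windows shown do not stand for that group. Hspb6 and Dnajb1 have 2 annotated starts each, and the window shown is the one with the match for Hspb6 and the upstream one, of 2 without a match, for Dnajb1. Hspd1 has 2 annotated starts too, and its other window holds no match. For Hspe1 and Hspd1, whose windows overlap on opposite strands, the shared 58 bases around the motifs are shown.
Hspa4l, chr3:40745363-40745612, plus strand: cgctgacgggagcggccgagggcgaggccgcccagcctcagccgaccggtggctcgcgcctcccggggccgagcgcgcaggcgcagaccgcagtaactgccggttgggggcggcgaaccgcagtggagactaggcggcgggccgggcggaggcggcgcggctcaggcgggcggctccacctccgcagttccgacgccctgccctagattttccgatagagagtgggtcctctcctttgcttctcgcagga
Hspa2, chr12:76404120-76404369, plus strand: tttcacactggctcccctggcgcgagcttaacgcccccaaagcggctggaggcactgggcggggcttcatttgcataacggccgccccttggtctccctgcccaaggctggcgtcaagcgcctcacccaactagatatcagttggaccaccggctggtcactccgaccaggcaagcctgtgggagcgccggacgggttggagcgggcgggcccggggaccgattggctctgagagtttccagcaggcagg
Hspb6, chr7:30553051-30553300, plus strand: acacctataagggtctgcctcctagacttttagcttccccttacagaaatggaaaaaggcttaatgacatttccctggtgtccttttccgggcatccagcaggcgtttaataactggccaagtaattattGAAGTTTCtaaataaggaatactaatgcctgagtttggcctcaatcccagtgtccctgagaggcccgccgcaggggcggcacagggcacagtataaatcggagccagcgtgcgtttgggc
Dnajb1, chr8:83607925-83608174, plus strand: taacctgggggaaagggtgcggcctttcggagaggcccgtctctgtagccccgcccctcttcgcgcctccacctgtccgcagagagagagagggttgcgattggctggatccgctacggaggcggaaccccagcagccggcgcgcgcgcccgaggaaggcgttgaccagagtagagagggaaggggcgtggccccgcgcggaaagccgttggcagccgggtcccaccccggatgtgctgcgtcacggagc
Hspb1, chr5:135887669-135887918, plus strand: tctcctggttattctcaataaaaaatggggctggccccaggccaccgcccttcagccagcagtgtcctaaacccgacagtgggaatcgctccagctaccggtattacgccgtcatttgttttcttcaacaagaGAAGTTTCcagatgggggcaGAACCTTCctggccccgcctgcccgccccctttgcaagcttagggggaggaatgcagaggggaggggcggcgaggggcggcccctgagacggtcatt
Hspa1a, chr17:34972157-34972406, minus strand: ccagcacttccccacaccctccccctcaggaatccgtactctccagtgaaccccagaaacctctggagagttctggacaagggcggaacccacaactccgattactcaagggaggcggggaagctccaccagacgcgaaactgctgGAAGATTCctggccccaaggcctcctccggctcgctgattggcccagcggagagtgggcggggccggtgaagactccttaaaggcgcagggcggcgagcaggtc
Hspe1 and Hspd1, chr1:55088039-55088096, plus strand: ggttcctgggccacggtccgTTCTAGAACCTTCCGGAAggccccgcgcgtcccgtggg

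At least 1 match stood in the windows of 11 of the 29 members, and in 31.7% of the 41 member windows beside 12.8% of all 32851 windows in the table. Runs of 3 alternating GAA and TTC units, each 2 bases apart, stood in 9.76% of member windows and 0.466% of all, and among members in those of Hspd1, Hspe1 and Dnajb6. These shares count windows and not separate sites. Hspd1 and Hspe1 share the same run, the overlapping windows of Dnajb6 hold the same run, and those of Hsph1 hold the same match. Of the members with a window that passed the test, the lower Hspb6 had a match, the lower Hspa4l and Hspa2 had none, and the higher Dnajb1 had none. Among the 24 members that did not pass, 9 had a match, and the untested Hspb3 had 1. In the windows of Hspa1a and Hspb1 the matches began 104 bases and 117 and 97 bases before the start. A match is a string of letters here and not a measured site. The absence of a match means only that this exact string was not in the window, and a differing or more distant element would be missed.

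Among the cytosolic Hsp70 and Hsp110 genes, 2 of 9 were lower in cerebellar astrocytes, beside 7.36% of all genes, and 7 did not pass. Hspa4l, an Hsp110 protein that exchanges nucleotide on Hsp70, had signals of 4216, 5668 and 4125 on cerebellar arrays 1 to 3 and of 9572, 8553 and 10070 on neocortical arrays 1 to 3. The groups did not overlap, and the highest cerebellar array lay well below the lowest neocortical one. The fitted log2 difference was -1.02 ± 0.138 (SE), or 2.03-fold lower (limma adjusted p = 0.0023). All 5 probe sets of the gene passed in the same direction, with log2 differences from -1.02 to -0.67. It was also called under each of the 17 processing alternatives tried.

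Hspa2, the Hsp70 protein that mouse spermatocytes need for meiosis and that other tissues also make, was the other gene of this group called lower. Its signals were 1807, 3458 and 2545 on cerebellar and 3996, 5740 and 4641 on neocortical arrays. The groups did not overlap, though cerebellar array 2 came near neocortical array 1. The log2 difference was -0.91 ± 0.228 (SE, 1.89-fold lower, limma adjusted p = 0.0363). With array number as a block the adjusted p was 0.0029. The call was lost without cerebellar array 1 (limma adjusted p = 0.0542, log2 difference -0.68) or 3 (0.0846), and without neocortical array 1 (0.0626), 2 (0.134) or 3 (0.112).

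The other 7 cytosolic members of these families had log2 differences from -0.32 to 0.10. Hspa8, the constitutive Hsc70 of the cytosol, had signals of 61740, 70890 and 70130 on cerebellar and 77520, 80930 and 81360 on neocortical arrays. They did not overlap, and the log2 difference of -0.24 ± 0.075 (SE) missed the threshold (limma adjusted p = 0.072) but passed with array number as a block (0.0493). With the values as deposited the Hspa8 difference was -0.07 (limma adjusted p = 0.6198). With arrays scaled to a common median it was -0.236 (0.2766). Of its other 3 probe sets none passed, and their differences ran from -0.30 to 0.25.

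Stress-inducible Hsp70 showed no difference past the threshold. Hspa1b had signals of 4552, 2966 and 3304 on cerebellar and 3689, 4693 and 3629 on neocortical arrays, and Hspa1a had 1305, 1064 and 1012 on cerebellar and 1184, 1438 and 1617 on neocortical arrays. In both genes the groups overlapped, and cerebellar array 1 was the highest of the cerebellar arrays. The log2 differences were -0.16 ± 0.175 for Hspa1b and -0.32 ± 0.174 for Hspa1a (SE, limma adjusted p = 0.603 and 0.279). That of Hspa1b is from its brightest probe set. Its other 2 probe sets gave 0.21 and 0.01, with overlap (limma adjusted p = 0.5088 and 0.9755). Hspa1a and Hspa1b are neighbouring, near-identical genes, whose windows above share 247 of 250 bases, so a probe set named for either may read both.

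Hspa4 and Hsph1, the other Hsp110 proteins, had log2 differences of 0.06 ± 0.119 and -0.14 ± 0.137 (SE), and neither passed on any probe set. Hspa4 had 8907, 10080 and 12270 on cerebellar and 9742, 9772 and 10140 on neocortical arrays. Of the Hsp110 genes measured, Hspa4l alone was called, and whether its difference was larger than that of Hspa4 or Hsph1 was not tested. Hspa14, a ribosome-linked Hsp70, had a difference of -0.30 ± 0.109 with no overlap between groups, and Hspa12a, a distant relative, had 0.10 ± 0.245 (SE, limma adjusted p = 0.117 and 0.847).

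The cytosolic Hsp90 gene measured was lower in cerebellar astrocytes. Hsp90aa1 codes for the more stress-responsive of the cytosolic Hsp90 proteins. Its signals were 37220, 49590 and 41680 on cerebellar and 56420, 57810 and 56320 on neocortical arrays. The neocortical arrays were close together and the cerebellar ones spread more widely, with none reaching them. The log2 difference was -0.42 ± 0.102 (SE, 1.34-fold lower, limma adjusted p = 0.0329). On the other 2 probe sets kept, the groups did not overlap either, but the differences of -0.42 and -0.29 did not pass (adjusted p = 0.0792 and 0.24). The call was lost without cerebellar array 1 (limma adjusted p = 0.065, log2 difference -0.31) or 3 (0.0909), and without neocortical array 1 (0.0966), 2 (0.101) or 3 (0.106). It was also lost with the values as deposited (0.0734).

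**Figure D2:**
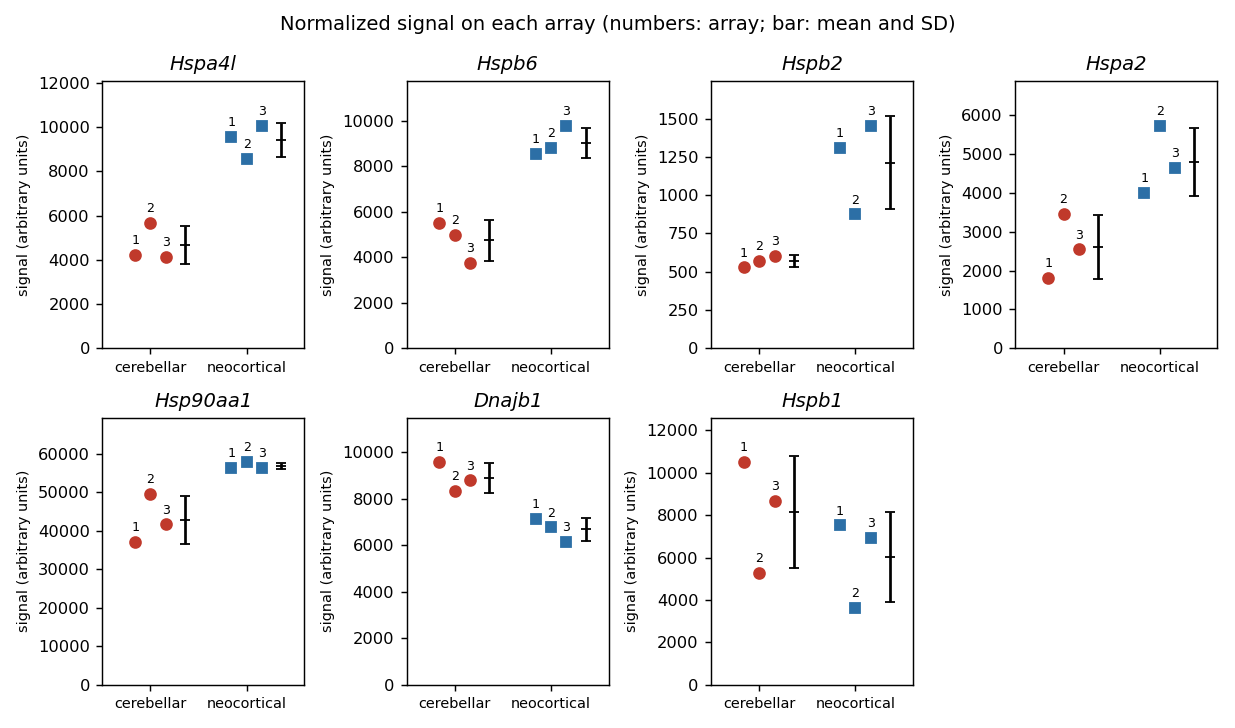
Normalized signal on a linear axis from 0 for the 6 genes past the threshold and Hspb1, with cerebellar arrays on the left and neocortical arrays on the right of each panel. Points are arrays with their numbers, and the bar beside them is the mean with the SD (n = 3). Groups do not overlap in the first 6 panels, and in the Hspb1 panel array 2 is the lowest of each group.

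Of the 7 J proteins of the cytosol and nucleus, 1 was higher in cerebellar astrocytes, beside 5.3% of all genes, and 6 did not pass. Dnajb1, the Hsp40 that works with inducible Hsp70, had 9562, 8317 and 8784 on cerebellar and 7136, 6764 and 6135 on neocortical arrays, without overlap. The log2 difference was 0.41 ± 0.1 (SE, 1.33-fold higher, limma adjusted p = 0.032). Its other probe set had a difference of 0.06 ± 0.116 and did not pass (adjusted p = 0.813). The call depended on the processing: scaling arrays to a common median gave 0.20 (limma adjusted p = 0.426), and the call was lost with the values as deposited (0.0519). It was lost without cerebellar array 1 (0.0683) or 3 (0.0691), and without neocortical array 1 (0.0687), 2 (0.0885) or 3 (0.132).

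Dnaja1, another J protein partner of Hsp70, passed on 1 of its 3 probe sets, which was not the brightest. On that probe set the signals were 18000, 18250 and 17240 on cerebellar and 13150, 15070 and 13220 on neocortical arrays, with no overlap and a log2 difference of 0.37 ± 0.085 (SE, limma adjusted p = 0.0271). The brightest probe set gave 0.26 ± 0.082 (adjusted p = 0.0805), and there too the groups did not overlap. Dnajb4 ran the other way without passing, with differences of -0.27, -0.55 and -0.36 on its 3 probe sets (limma adjusted p = 0.158, 0.0641 and 0.573). Without cerebellar array 1 its brightest probe set passed (-0.39, adjusted p = 0.0288), and with array number as a block the second one did (0.0446). Dnaja2, Dnajb2, Dnajb5 and Dnajb6, the last known for holding back aggregation of polyglutamine proteins, had differences from -0.30 to 0.07.

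**Figure D3:**
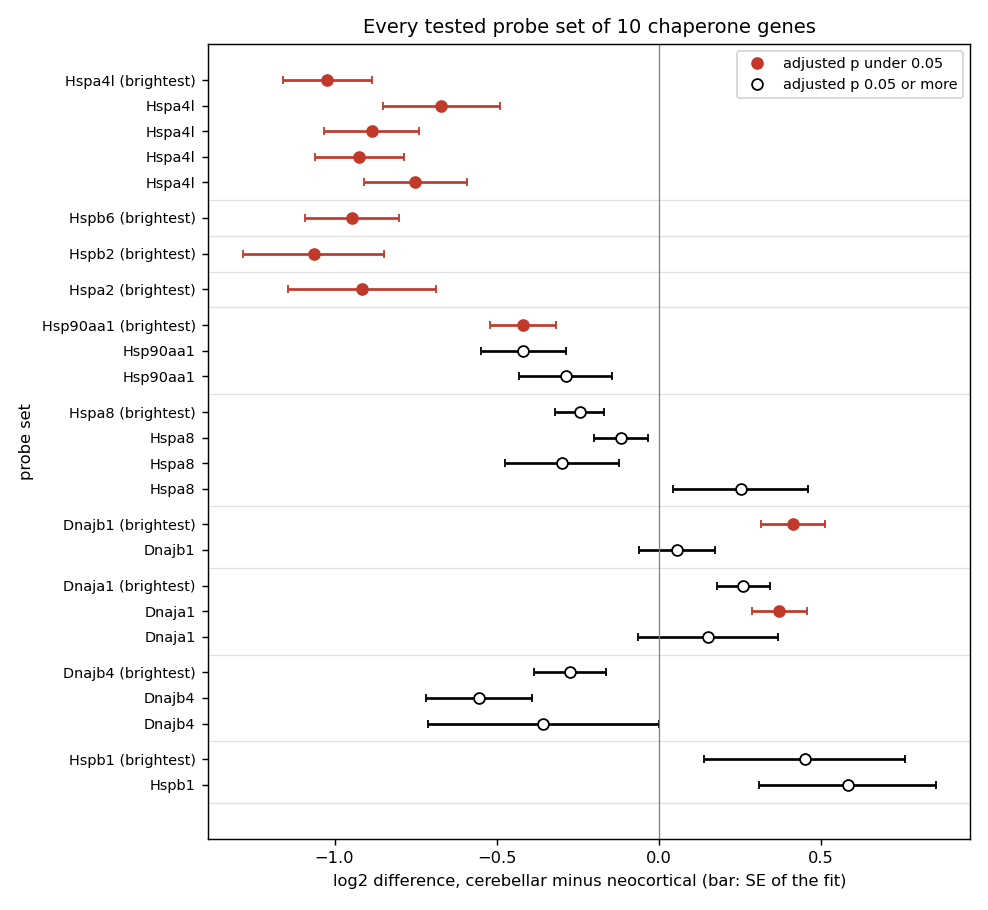
Log2 difference, cerebellar minus neocortical, with its SE for every tested probe set of 10 members, with the brightest at the top of each gene. Filled points have an adjusted p under 0.05. All 5 Hspa4l probe sets lie left of 0 and are filled, while the probe sets of Hsp90aa1, Dnajb1 and Dnaja1 lie on 1 side of 0 with 1 filled each.

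Of the 5 small heat shock protein genes tested, 2 were lower in cerebellar astrocytes, beside 7.36% of all genes. The list was chosen with earlier results known, and no test over this group was made. Hspb6, known as Hsp20 and best known from muscle, had 5503, 4964 and 3756 on cerebellar and 8536, 8788 and 9788 on neocortical arrays. No cerebellar array came near the neocortical range. This gave a log2 difference of -0.95 ± 0.144 (SE, 1.93-fold lower, limma adjusted p = 0.0043), and the call was lost only with no filter on low signal (0.0575) among the 17 alternatives.

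Hspb2, a muscle-enriched small heat shock protein that binds the myotonic dystrophy kinase, was likewise lower. It had 526.9, 569.8 and 604.9 on cerebellar and 1308, 873.5 and 1454 on neocortical arrays. The cerebellar arrays were close together, and neocortical array 2 was the lowest of its group. The log2 difference was -1.06 ± 0.218 (SE, 2.09-fold lower, limma adjusted p = 0.017), and it rests on 1 probe set, as does that of Hspb6. Without neocortical array 1 or 3 the call was lost (adjusted p = 0.0773 and 0.0839).

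Since both genes are known from muscle, markers of smooth muscle, pericytes and skeletal muscle are given beside them. As a list they did not run one way: of the 10 above the filter, 6 had differences above 0 and 4 below, with a median log2 difference of 0.13. The summed signal of the 14 markers was 162100 to 211800 on cerebellar and 218000 to 265700 on neocortical arrays, and Acta2, Tagln and Myl9 are its brightest members. Acta2 and Myl9 were lower in cerebellar astrocytes, with log2 differences of -0.38 and -0.64 (limma adjusted p = 0.0354 and 0.0425), and none was higher. Tagln and Cnn1 had differences of -0.37 and -0.61 and did not pass, and Des, Actg2, Acta1, Pdgfrb, Cspg4 and Rgs5 had differences above 0. Des (desmin), at the signal floor on 2 neocortical arrays, had a difference of 2.00, which did not pass without the block (0.06) and passed with it (0.0246). Of the defining markers, Myh11, Myod1, Myog and Ttn lay in the dim range in both groups, and none of the list was at the signal floor on every array. Their part in the results for Hspb2 and Hspb6 was not tested.

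Cryab, which lies beside Hspb2 in the genome and is made by astrocytes and oligodendrocytes, did not pass. Its signals were 26680, 21940 and 22170 on cerebellar and 23030, 24900 and 23240 on neocortical arrays, which overlapped. The brightest probe set gave a log2 difference of -0.01 ± 0.094 (SE, limma adjusted p = 0.951), and that of its other probe set kept was 0.13 ± 0.104. Hspb8, the partner of Bag3 in chaperone-assisted autophagy, had -0.22 ± 0.094 with no overlap between groups (adjusted p = 0.183), and Bag3 itself had -0.09 ± 0.129 (SE).

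Hspb1, the mouse counterpart of a well-known human stress protein, had the widest spread within groups of the 34 members. It had 10490, 5260 and 8668 on cerebellar arrays 1 to 3 and 7515, 3607 and 6934 on neocortical arrays 1 to 3. Array 2 was the lowest and array 1 the highest in each group, and the range was 1.00 on the log2 scale in cerebellar and 1.06 in neocortical arrays, beside medians of 0.257 and 0.203 over the members. Its log2 difference of 0.45 ± 0.31 (SE) did not pass (limma adjusted p = 0.401). It was 0.24 without cerebellar array 1 and 0.74 without cerebellar array 2, and 0.12 without neocortical array 2. Between arrays of the same number the differences were 0.48, 0.54 and 0.32. With array number as a block the difference passed (0.45 ± 0.098, limma adjusted p = 0.023), and the second probe set passed with the block too (0.58, adjusted p = 0.0257).

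Over the probe sets tested, deviations from group means correlated weakly between same-numbered arrays, at 0.18, 0.188 and 0.101. No label states that equal numbers are pairs, and the pairing was read from these same data. The fit with array number as a block is set beside the one without, and its calls depend on that pairing. With the block, 6 members were lower and 2 were higher, beside 8.6% and 6.04% of all genes. The members gained were Hspa8 and Hspb1, and no member was lost.

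Chaperones of the endoplasmic reticulum and the mitochondrion did not pass, 5 and 3 of them. Hspa5 (BiP), the Hsp70 of the endoplasmic reticulum and a gauge of the unfolded protein response, had 50590, 52650 and 55470 on cerebellar and 49370, 47710 and 49180 on neocortical arrays. Every cerebellar array was above every neocortical one, but the log2 difference was 0.12 ± 0.068 (SE, limma adjusted p = 0.316). That held for the brightest probe set, and on the other 2 the groups overlapped, with differences of -0.05 and -0.17. Hsp90b1 (Grp94) had 0.13 ± 0.097, Hspa13 -0.02 ± 0.102, Dnajb9 (ERdj4) -0.21 ± 0.084 and Dnajc3 -0.21 ± 0.127 (SE). These differences ran in both directions and were all small.

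The mitochondrial Hsp70 gene Hspa9 had a log2 difference of -0.04 ± 0.092. The chaperonin gene Hspd1 had 0.09 ± 0.079, and its lid, Hspe1, 0.05 ± 0.105 (SE). Hspd1 had 16490, 16730 and 15130 on cerebellar and 15380, 14900 and 15280 on neocortical arrays. Hspe1, which shares the window with Hspd1, had 19470, 15180 and 18130 on cerebellar and 16770, 16030 and 17890 on neocortical arrays, so the groups overlapped in both genes.

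Of the heat shock factors, Hsf2 was dim on both kinds of array and gave 238.7, 243.5 and 231.5 on cerebellar and 233.2, 188.6 and 135.2 on neocortical arrays. These values lie under the highest reading of the bacterial controls, 257.6, but above the 95th percentile of those readings, 106.8. The Hsp70 and Hsp90 adaptor Stip1 (Hop) had a log2 difference of 0.04 ± 0.111 and the Hsp90 activator Ahsa1 -0.01 ± 0.117 (SE), and neither passed on any probe set.

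**Figure D4:**
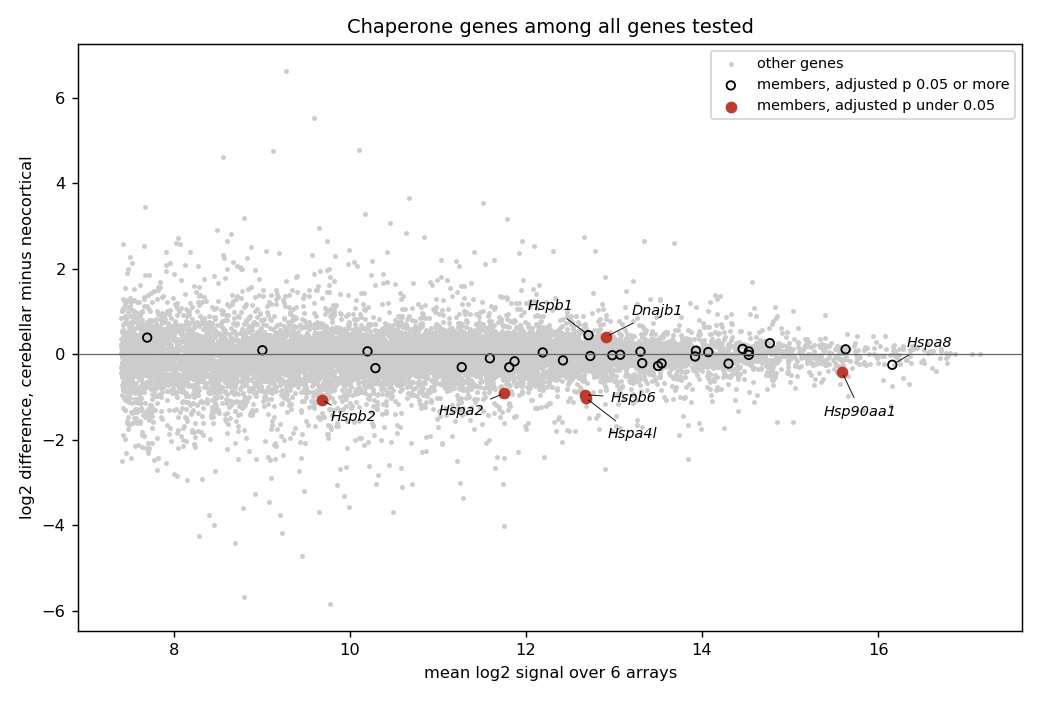
Log2 difference, cerebellar minus neocortical, against mean log2 signal for all 12616 genes by brightest probe set (grey), with the 34 members on top. Filled members are past the threshold, and all members lie between -1.06 and 0.45 while other genes reach far wider differences.

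Genes of the wider folding network were measured as well. Of 115 such genes on 6 lists, 102 were tested, of which 4 were higher, 3 were lower and 95 did not pass. That is 6.86% called, beside 12.7% of all genes, and the median log2 difference of the 102 was 0.04. These calls are by the brightest probe set and depended on the processing. Without the variance trend no related gene passed, and with no filter on low signal 1 passed, as higher. None of 14 tested genes of the cytosolic chaperonin and prefoldin and none of 11 mitochondrial folding genes and proteases passed, although 2 and 0 of them were higher and 3 and 1 lower at an unadjusted p under 0.05, where 1584 of all 12616 genes were higher and 1935 were lower. Of 23 other Hsp70, J and small heat shock protein genes, Dnajc7, a co-chaperone that binds Hsp70 and Hsp90, was higher (log2 difference 0.33 ± 0.089, SE, limma adjusted p = 0.0485), a call lost with the block (0.0582). With the block, the J protein gene Dnajc12 was higher (0.50, adjusted p = 0.0306) and Bag2, a co-chaperone that inhibits the ubiquitin ligase Chip, was lower (-0.47, adjusted p = 0.0471).

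Of 21 co-chaperones, 1 was higher and 1 was lower. Cdc37l1, a relative of the kinase adaptor Cdc37, was higher (0.43 ± 0.115, SE, limma adjusted p = 0.0474), and Hsbp1, which binds heat shock factor 1 and restrains it, was lower (-0.34 ± 0.083, SE, adjusted p = 0.0334). Hsbp1 had 25190, 23080 and 21320 on cerebellar and 29310, 28420 and 30240 on neocortical arrays, without overlap.

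Of 30 genes of folding and stress in the endoplasmic reticulum, 1 was higher and 2 were lower. P4hb, a protein disulfide isomerase that is also a subunit of the collagen prolyl hydroxylase, was higher, with 21000, 24500 and 29170 on cerebellar and 18170, 14930 and 18020 on neocortical arrays (log2 difference 0.54 ± 0.13, SE, limma adjusted p = 0.0319). Of the 10 fibroblast and meningeal markers, 6 had differences above 0 and 4 below, with a median of 0.58, and 1 passed, Fn1, which was higher (0.93, adjusted p = 0.0034). Their part in the P4hb result was not tested. Sil1, a nucleotide exchange factor for Hspa5, was lower (-0.70 ± 0.141, SE, adjusted p = 0.0158), with 2252, 2049 and 2057 on cerebellar and 3564, 2874 and 3962 on neocortical arrays. Chac1, a glutathione-degrading enzyme induced in the unfolded protein response, was also lower (-0.68 ± 0.174, SE, adjusted p = 0.039). Of 3 tested genes around the heat shock factors, Hmox1 (heme oxygenase 1), which answers to heat and oxidants, was higher, with 5753, 4412 and 5027 on cerebellar and 3696, 3269 and 3571 on neocortical arrays (0.52 ± 0.123, SE, adjusted p = 0.0297).

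**Figure D5:**
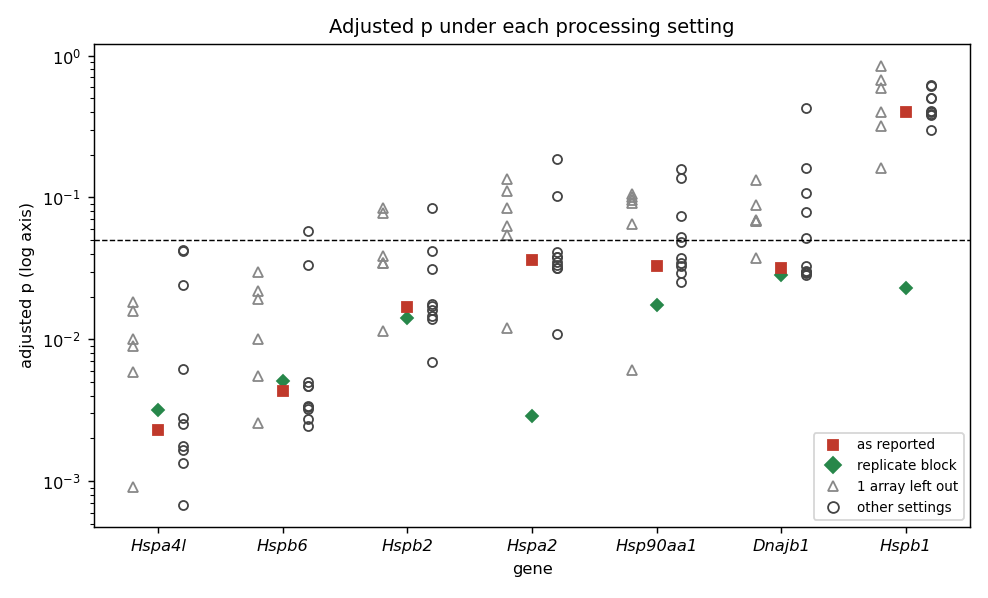
Adjusted p (log axis) of the 6 called members and Hspb1 as reported (squares), with array number as a block (diamonds), with 1 array left out (triangles) and under the other settings (circles); the dashed line is the threshold of 0.05. All points of Hspa4l lie under the line, those of Hspa2, Hsp90aa1 and Dnajb1 fall on both sides, and of Hspb1 only the diamond lies under it.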

How the data were processed

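The values the authors deposited are intensities on a linear scale, summarised to probe sets. How it was summarised is not given in the sources used here. Its mean, trimmed by 2% at each end, was 1500 on every array. The 45037 probe sets that are not controls were set to common quantiles, then floored at 62.16, the 20th percentile, and converted to log2. The 27022 probe sets whose mean log2 value reached the 40th percentile went into tests with limma 3.58.1 in R 4.3.3 (lmFit, two-sided, without a block, eBayes with trend = TRUE). The code was also run on simulated data with independent noise, which does not show how many of the reported calls hold. Differences are cerebellar minus neocortical, means and SDs are of normalized signal in arbitrary units, and folds come from the fitted log2 differences. With 3 arrays per group, their number limits the precision.

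Symbols came from the platform annotation, updated by Entrez ID to GRCm38.p6 for 34741 of 34945 probe sets with 1 symbol; 932 had several and 9160 none. A gene counts by its brightest probe set. The members and lists were chosen with earlier results of these data known. Every member was accounted for, those past the threshold on any probe set with all arrays, and of each related list up to 3 genes past it. After subtracting group means, arrays sharing a number had correlations of 0.18, 0.188 and 0.101, and other pairs -0.182 to 0.0225. Subtracting the means forces some pairs below 0 where others lie above it. Numbers were taken as pairs from these data and not from the labels.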

Additional observations from a re-analysis of the deposited data

How the results depend on the processing

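Over 17 alternatives no called member changed its sign; Hspa4l was called in all 17, Hspb6 in 16, Hspb2 in 13 of the 16 that kept its probe set, Hspa2 in 10, Hsp90aa1 in 8 and Dnajb1 in 7. Leaving out 1 array gave 0 to 1 members higher and 2 to 5 lower, a member median of -0.072 to -0.033, 0 to 3 related genes higher and 0 to 3 lower, and 547 to 1230 probe sets higher and 654 to 1554 lower; fewer arrays were then fitted. With the replicate block 2 members were higher. With no filter 0 members were higher and 1 was lower, 1 related gene was higher and 0 were lower, and 577 and 704 probe sets passed; more probe sets were then tested. Without the variance trend 0 members were higher and 3 lower, 0 related genes were higher and 0 lower, and 676 and 914 probe sets passed. Scaling to a common median put the member median at -0.24, with 0 members higher, 0 related genes higher and 5 lower, and 819 probe sets higher beside 2105 lower. With values as deposited 0 members and 2 related genes were higher and the member median was -0.074, with 1586 probe sets higher and 1447 lower. Averaging probe sets by gene gave 0 members higher, a median of -0.098 and 1010 features lower. Leaving out the dimmest 60% moved the median to -0.071. The cause of these shifts was not tested. Dim signal limits Hspb3 and Hsf2.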
